A study of Mus musculus with 14 samples.

Results

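Expression across the transcriptome was compared between 3D and 2D cultures of induced hepatic stem cells, by setting the 4 libraries of organoids and assembloids against the 4 libraries of the same cells in 2D culture. A gene entered the comparison when the mean of log2(count + 1) across the 8 culture libraries reached 3. This left 13409 of the 28022 genes counted, and the 8 libraries were part of the 14 in the series. The induced hepatic stem cells (iHepSCs) of every group came from C57BL/6J mouse embryonic fibroblasts that received Oct4 and Hnf4a by lentivirus, so all groups share this background and both transgenes. The libraries labelled 2D-iHepSC (2D-iHs, n = 2) held iHepSCs alone, and those labelled 2D-iHepSCiEC (2D-iHEs, n = 2) held iHepSCs on collagen-coated plates with induced endothelial cells (iECs), which are human cells, HF1 fibroblasts converted with ETV2. The libraries labelled 3D-iHA (iHLOs, n = 2) were liver organoids of iHepSCs, and those labelled 3D-iHEA (iHEAs, n = 2) were assembloids of iHepSCs and iECs. Both 3D groups were formed as spheroids in ultra-low attachment plates and then kept with shaking in a hydrogel of type I collagen and Matrigel in the medium with oncostatin M that both 2D groups also received. The sources used here do not give the time in 2D culture. Geometry, matrix, shaking and any difference in time in culture therefore cannot be told apart in this comparison.

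Hepatocytes and the cells that line the bile ducts come from the foregut endoderm, as do the epithelial cells of the stomach, duodenum and pancreas. Progenitors of this lineage can express genes of several of these organs. Hepatocytes make most plasma proteins and the enzymes of the urea cycle, while cholangiocytes form a tight, ion-transporting tube of keratin-rich cells. On a stiff, flat surface such cells spread, build stress fibres and focal adhesions and keep the co-activator YAP in the nucleus, and in suspension or gel they round up, polarize and often close a lumen.

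Total counts of the 8 libraries lay between 20851489 and 35143325, at which 3 counts correspond to 0.0854 to 0.144 CPM. Levels are given as CPM, the count per 1000000 counts of the library, and differences as log2 fold changes of 3D against 2D with their standard error (SE) from edgeR's quasi-likelihood test with Benjamini-Hochberg adjustment over the 13409 genes. A gene is called when its adjusted p is under 0.05. Values of single libraries follow the order 2D-iH 1, 2D-iH 2, 2D-iHE 1 and 2D-iHE 2 for 2D, and iHLO 1, iHLO 2, iHEA 1 and the other iHEA library for 3D; the column name of the latter repeats part of the name of iHEA 1, so it was assigned to its condition only and is called the unnumbered library. The 2 iHEA libraries differed from each other more than the libraries of the other conditions did, with a chi-square per gene of 11.6 against 3.39 to 3.7. RNA of the human iECs can enter these counts only where it aligned to the mouse genome, and its share was not tested. The 2 libraries of a condition are not stated to come from separate cultures, so p-values measure the spread between these libraries, which may be technical. In bulk RNA, a change in the share of a cell type and a change of RNA per cell cannot be told apart.

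The 3D cultures differed from the 2D cultures in most of the genes tested. Of the 13409 genes, 5193 (38.7%) were called higher in 3D and 4986 (37.2%) lower, 10179 (75.9%) in all, while the median log2 fold change over all tested genes was 0.01. Large differences were more often rises: 1706 genes (12.7%) were called with at least a 2-fold rise and 1517 (11.3%) with at least a 2-fold fall, whereas an 8-fold rise was found for 480 genes (3.58%) and an 8-fold fall for 188 (1.4%). At 32-fold and more, 168 genes were higher and 35 lower. Of the tested genes, 394 reached the minimum only through the 3D libraries and 294 only through the 2D libraries, so that these had to differ, and of the 12721 that reached it in both 4831 were called higher and 4763 lower. Among the genes named below, the first kind includes Pgc, Cyp2f2, Cyp2d34, Cyp2d10, Cyp2d12, Prss32, Tmprss4, Chdh, Nfasc, Gja5, Agr2, Chil1, Tff3, Pigr, Sftpd, Psg28, Ccl28, Dll1, Nr1i2, Tat, Sctr, Pdgfrb, Fgfr1, Foxj1, Pecam1 and Chgb. The second kind includes Rgs20, Gjb2, Fat2, Lox, Cdkn2a, Nes, Atp6v1c2 and Siglecg. The fold changes and p-values of both kinds describe a difference that their testing required. Every 3D library lay above every 2D library in 5040 genes (37.6%) and below in 4520 (33.7%). The share of all counts taken by the 100 called genes with the largest gain in CPM rose from 4.41% to 4.53% in the 2D libraries to 10.8% to 11.4% in the 3D libraries, while the 100 with the largest loss went from 10.3% to 10.5% to 4.95% to 5.2%.

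**Figure D1:**
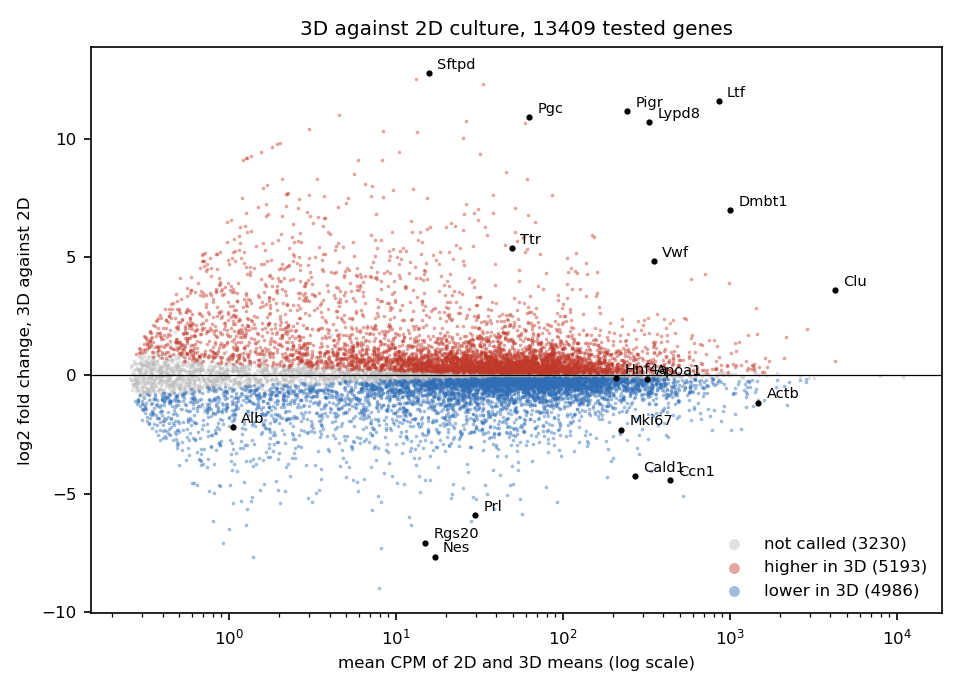
Each point is 1 of the 13409 tested genes, with the mean of its 2D and 3D CPM means on a log axis and its log2 fold change of 3D against 2D (4 libraries each). Red points were called higher (5193) and blue points lower (4986) with an adjusted p under 0.05 in edgeR, grey points were not called, and the black points carry the names of genes described in the text. The cloud reaches farther above 0 than below it.

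Ranked by their rise among genes at 10 CPM or more, and with genes shown in the study or named in an earlier analysis of these data set aside, the leading 12 genes included secreted and surface products of mucosal epithelia and cytochromes. Lypd8, a secreted protein of the colon epithelium that binds flagellated bacteria, was at 0.303, 0.959, 0.0854 and 0.192 CPM in 2D and at 575, 567, 675 and 804 CPM in 3D. Its 3D libraries lay far above all 2D libraries, with a log2 fold change of 10.71 ± 0.27 (SE, adjusted p = 4.54e-11, edgeR). Pgc, which encodes the precursor of the stomach protease gastricsin, was at 0.0303, 0.171, 0.0285 and 0 CPM in 2D and at 123, 143, 134 and 103 CPM in 3D (10.93 ± 0.24, adjusted p = 1.91e-11, edgeR). Cyp2f2, a cytochrome of lung club cells and of adult liver, was at 0.048 to 0.103 CPM in 2D and 106 to 134 CPM in 3D. The culture types did not overlap for any of these genes. All of the 12 but Lypd8 reached the minimum for testing only through the 3D libraries, so that they had to differ. With so few reads in 2D, 1 library sets the fitted size: without 2D-iH 2 the log2 fold change was 11.69 for Lypd8 and 12.17 for Pgc. Further members of the 12 with the largest rise were the cytochromes Cyp2d34 and Cyp2d10, which belong to a family of near-identical copies whose reads may be split by the counting, the serine proteases Prss32 and Tmprss4, the choline dehydrogenase Chdh, the adhesion molecule neurofascin (Nfasc), the connexin Gja5, the chitinase-like lectin Chil1 and Agr2, a disulfide isomerase of mucus-producing cells. For those with only 1 to 3 reads in all 2D libraries together the ratio is imprecise: it was 635 for Agr2 with an exact binomial 95% interval of 217 to 3081 and 2028 for Cyp2d34 with an interval of 693 to 9836, which cover counting error only.

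The upstream sequence of Pgc is shown because this gene led that ranking. The 250 bases before its RefSeq start are printed 5′ to 3′ in lower case, with a match to the TATA box letters TATAAA in capitals, whose first base lies 31 bases before the start.
Pgc (GRCm38.p6, chr17:47726592-47726841, plus strand): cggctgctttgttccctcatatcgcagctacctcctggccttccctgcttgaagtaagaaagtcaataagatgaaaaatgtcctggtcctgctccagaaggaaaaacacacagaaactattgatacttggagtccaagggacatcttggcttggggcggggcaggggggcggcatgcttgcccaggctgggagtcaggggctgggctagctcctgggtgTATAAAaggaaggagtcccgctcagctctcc
Of the 24 tested stomach and intestine genes below, 20 had a promoter (250 bases before to 50 after the start) in the RefSeq table, and 7 of these (35%) held TATAAA on either strand, against 14.2% of all 27025 promoters there. In all, 18 motifs were searched on both strands. These promoters also held AGATAA, the GATA factor motif, in 35% against 11.4% and TGANTCA, the AP-1 motif, in 20% against 7.93%. The FOXA factor motif was in 35% against 20.5% and the C/EBP motif in 25% against 10.8%. The SP factor motif was less common here, in 25% against 35.9%. The TATA box letters were not particular to this list, since 33.3% of the plasma protein promoters below held them too.

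Genes of gastrointestinal mucosa were higher in 3D with 1 exception. Of 24 tested members of a list of stomach and intestine products, 23 were called higher, none lower, and the median log2 fold change was 4.62. The other 13 of the 37 listed genes were too low to test, and 6 of the tested ones reached the minimum only through the 3D libraries, so that they had to differ. Of the 18 that reached it in both culture types 17 were higher and none lower. Gkn1, a gastrokine of stomach pit cells, was at 0.758, 1.13, 0.797 and 0.671 CPM in 2D and at 204, 203, 143 and 129 CPM in 3D, so that the iHLOs were above the iHEAs and both far above 2D (7.62 ± 0.24, adjusted p = 1.87e-10, edgeR). The membrane mucin Muc4 was at 0.48 to 0.788 CPM in 2D and at 57.7, 50.5, 73 and 123 CPM in 3D (6.85 ± 0.38, adjusted p = 1.68e-08, edgeR). Tff3, a trefoil peptide secreted with intestinal mucus, had no read in any 2D library and 8.36, 7.11, 9.04 and 11.7 CPM in 3D, which is at least 353-fold higher against a floor of 3 reads over the 2D group. The goblet cell mucin Muc2 was the one member not called, at means of 0.825 CPM in 2D and 0.501 CPM in 3D (-0.72 ± 0.31, adjusted p = 0.052, edgeR). It was called lower without 2D-iH 2, iHLO 2 or the unnumbered iHEA library (adjusted p = 0.021, 0.0399 and 0.0461, edgeR) and with 1 mean per condition (0.0466). The summed level of the list was 952 to 1473 CPM in 2D and 4926 to 5058 CPM in 3D. Among genes of intestinal stem cells, Olfm4 was at no more than 0.0421 CPM in any culture library, against 16.5 and 11.2 CPM in fetal liver. Lgr5 had 9.6 CPM in iHEA 1 and at most 0.0606 CPM in each of the other 7 cultures. Lgr5 is not particular to intestine in this series, since it was at 320.3 and 308 CPM in the fibroblasts.

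Proteins of mucosal defence carried a larger part of the gain. Of 21 tested members, 18 were higher and 2 lower (median 4.98). Here 15 listed genes were not tested and 7 reached the minimum only in 3D, and of the 14 that reached it in both culture types 11 were higher and 2 lower. The summed level of the list went from 775 to 1024 CPM in 2D to 13065 to 17312 CPM in 3D. Clu, the secreted chaperone clusterin, had the largest gain in CPM of all genes called: it was at 559.7, 572, 709.7 and 694 CPM in 2D and at 6792, 6999, 7810 and 9879 CPM in 3D (3.61 ± 0.13, adjusted p = 4.32e-10, edgeR). Dmbt1, a scavenger receptor protein of mucus, was at 10.7 to 23 CPM in 2D and 1591 to 2289 CPM in 3D (6.99 ± 0.23, adjusted p = 2.82e-10, edgeR). Ltf, the iron-binding lactoferrin, was at 0.333, 0.548, 0.74 and 0.528 CPM in 2D and 1632, 1449, 1639 and 2131 CPM in 3D (11.59 ± 0.19, adjusted p = 4.14e-12, edgeR), and Pigr, which carries immunoglobulin A across epithelia, had 0.103 to 0.256 CPM in 2D and 364 to 738 CPM in 3D. The lung collectin Sftpd was without a read in 2D and at 29.8, 19.9, 33.2 and 43.2 CPM in 3D, at least 1225-fold higher against the same floor. Not all of these genes were particular to mucosa in this series. In adult liver Clu was at 1029 and 1098 CPM and Pigr at 842 and 916 CPM. Ltf and Sftpd were at no more than 2.04 CPM there and Dmbt1 at 0. The members that fell were the protease inhibitor Slpi, from 61.2 to 82.6 CPM to 6.29 to 14.4 CPM (-2.95 ± 0.21, adjusted p = 1.27e-07, edgeR), and the lysozyme Lyz2, from 2.58 to 3.04 CPM to 1.53 to 2.32 CPM. The call of Lyz2 was lost when the cultures with iECs were fitted alone (-0.59, adjusted p = 0.0593, edgeR). It was kept for them in the fit of all conditions (-0.59, adjusted p = 0.0383, edgeR).

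**Figure D2:**
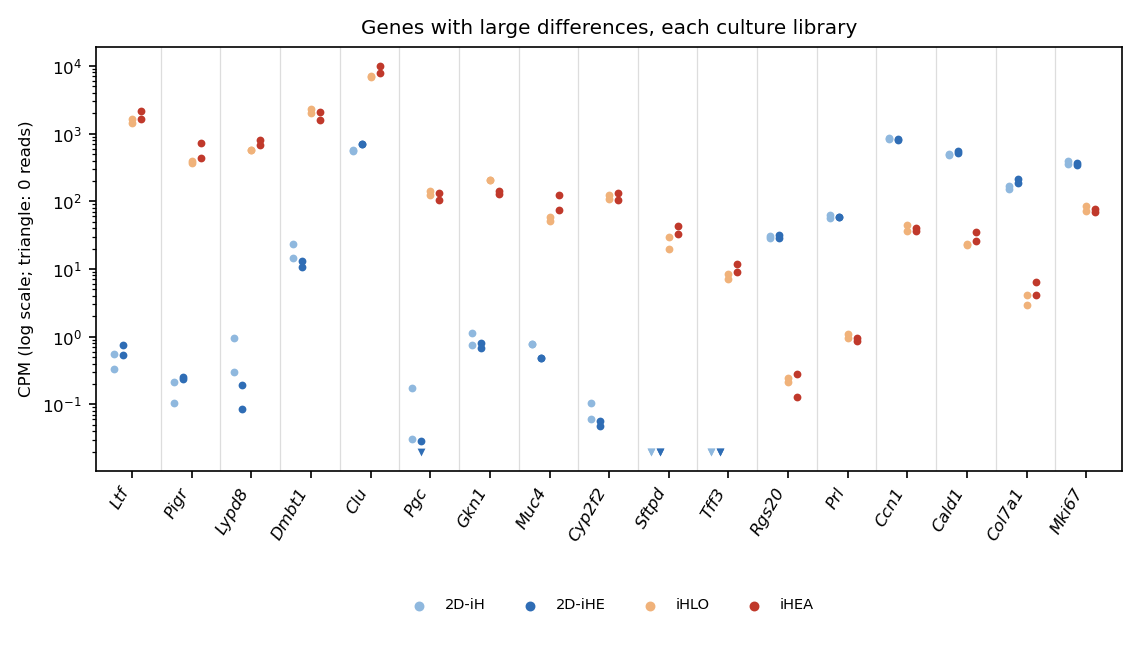
CPM of 17 genes in each of the 8 culture libraries on a log axis, with 1 point for each library (2 for each of 2D-iH, 2D-iHE, iHLO and iHEA) and triangles at the bottom for libraries without a read. For the 11 genes on the left all 3D libraries are above all 2D libraries, and for the 6 on the right all are below.

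Liver gene expression moved in several directions, and the hepatocyte marker Alb was low in all cultures. Alb was at 6.36, 0.308, 0.0854 and 0.0959 CPM in 2D and 0.104, 0.571, 0.698 and 0.168 CPM in 3D, so the groups overlapped and no difference was called (adjusted p = 0.115, edgeR). Its log2 fold change turned to 1.20 without 2D-iH 1 (adjusted p = 0.154) and was -2.62 without 2D-iHE 1 (adjusted p = 0.0493). Without iECs Alb was called lower in 3D (-3.37, adjusted p = 0.000322, edgeR) and with iECs higher (2.26, adjusted p = 0.0291). Each of these calls compares 2 libraries with 2, all under 1 CPM but 2D-iH 1, and without iECs the groups overlapped. In the same series its mean was 11993 CPM in fetal liver and 230811 CPM in adult liver, so none of the 8 cultures carried this defining marker at a liver level. Of the 20 tested plasma proteins of hepatocytes, 12 were higher and 4 lower with a median of 1.64, while 19 listed genes were too low to test. Of these 20, 3 reached the minimum only in 3D and 1 only in 2D, and of the 16 that reached it in both 9 were higher and 3 lower. In all, the summed level of the list was 948 to 1012 CPM in 2D and 2080 to 2324 CPM in 3D. Ttr, the thyroid hormone carrier transthyretin, was at 2.58, 3.05, 1.91 and 1.49 CPM in 2D and 101, 88.5, 100.3 and 94.8 CPM in 3D (5.37 ± 0.13, adjusted p = 3.58e-11, edgeR). It remained below its means of 569.9 CPM in fetal and 1941 CPM in adult liver. Ceruloplasmin (Cp), the copper-carrying ferroxidase, went from 119.7 to 195 CPM to 682 to 762 CPM (2.23 ± 0.14, adjusted p = 6.12e-08, edgeR), and Apob, the scaffold of low-density lipoprotein, from 387 to 434 CPM to 780.3 to 931 CPM (0.99 ± 0.06, adjusted p = 4.61e-08, edgeR). The fetal albumin relative Afp moved the other way, from 27.9 to 37.6 CPM to 16.9 to 19.9 CPM (-0.83 ± 0.10, adjusted p = 1.88e-05, edgeR). Apoa1, the main protein of high-density lipoprotein, lay at 319 to 351 CPM in 2D and 239.9 to 353 CPM in 3D and was not called, but it was called lower in the cultures with iECs (-0.38, adjusted p = 0.00266, edgeR), with 1 mean per condition (-0.18, adjusted p = 0.00793) and without iHLO 1 (-0.25, adjusted p = 0.0395).

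Complement C3, which is made by hepatocytes and by mucosal epithelia, is shown with its upstream sequence because it belongs to both lists and its level set 1 assembloid library apart. It was at 5.82, 6.48, 16 and 16.9 CPM in 2D and at 70.9, 55.9, 275 and 58.6 CPM in 3D, with iHEA 1 the highest and no overlap of the groups (3.35 ± 0.58, adjusted p = 0.000264, edgeR). Without iHEA 1 the log2 fold change was 2.46 (adjusted p = 2.38e-05, edgeR). The 250 bases before its start follow, with a match to the C/EBP letters TTGCNNAA in capitals, 45 bases before the start at its first base.
C3 (GRCm38.p6, chr17:57228137-57228386, minus strand): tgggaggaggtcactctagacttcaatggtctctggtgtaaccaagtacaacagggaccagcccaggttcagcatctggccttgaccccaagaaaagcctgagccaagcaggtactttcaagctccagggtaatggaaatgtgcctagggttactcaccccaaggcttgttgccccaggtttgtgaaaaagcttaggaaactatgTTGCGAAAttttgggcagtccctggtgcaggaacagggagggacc
Of the 20 tested plasma protein genes 18 had a promoter in the table, and 8 of these (44.4%) held TTGCNNAA on either strand against 10.8% of all promoters, among them Alb and Afp, which did not rise. Of the other motifs searched, TATAAA was found in 33.3% of these promoters against 14.2% of all. The FOXA factor motif was in 44.4%, the same share as C/EBP, against 20.5% of all. The HNF1 motif was in 16.7% (3 of 18) against 0.437%, and the HNF4 motif in 0 of 18 against 0.477%. The SP factor motif was less common here, in 16.7% against 35.9%. The C/EBP letters were not particular to this list, since 25% of the stomach and intestine promoters held them too.

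Enzymes of hepatocyte metabolism showed no common direction. Only 12 of the 26 genes of amino acid, urea and glucose metabolism reached the level for testing, with 5 higher and 5 lower and a summed level of 289.5 to 319 CPM in 2D and 236 to 260.5 CPM in 3D. Of these 12, 2 reached the minimum only in 3D, Tat among them, so that they had to differ, and of the 10 that reached it in both culture types 4 were higher and 5 lower. Tat, which starts tyrosine breakdown, was at 0.048 to 0.333 CPM in 2D and at 1.49, 2.54, 18.8 and 2.61 CPM in 3D (4.98 ± 1.01), again with iHEA 1 far above the other 3D libraries. The log2 fold change of Tat was 3.45 without this library. It stayed far below adult liver, where its mean was 1905 CPM. Fah and Cth, enzymes of tyrosine and cysteine metabolism, fell from 73.2 to 92.4 CPM to 46.7 to 47.4 CPM and from 109 to 114 CPM to 58.9 to 69.3 CPM. The urea cycle enzyme Cps1 was at no more than 0.515 CPM in any culture library, with overlapping groups. Otc, another enzyme of this cycle, had 1 read in 2D and 46 in 3D, a ratio of 49.8 with an exact binomial 95% interval of 8.5 to 2008, and was at 0.295 to 0.489 CPM in 3D against 424 CPM in adult liver.

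Transcription factors of liver and endoderm rose more often than they fell. Of 24 tested factors 14 were higher, 4 lower and 6 not called, with a median log2 fold change of 0.46. Hnf4a, which was also delivered as a transgene so that its reads cannot be told apart by origin, was at 232, 236, 192 and 197 CPM in 2D and 187, 199.7, 206 and 216 CPM in 3D and was not called (adjusted p = 0.217, edgeR). Without iECs it was called lower in 3D (-0.31, adjusted p = 1.59e-06, edgeR), as it was with 1 mean per condition (-0.10, adjusted p = 0.0188). Cebpa, which drives the hepatocyte program, went from 2.27 to 4.52 CPM to 14.1 to 16.1 CPM (2.08 ± 0.18, adjusted p = 7.83e-07, edgeR). The xenobiotic receptor Nr1i2 (PXR) went from 0.121 to 0.24 CPM to 4.11 to 4.61 CPM (4.61 ± 0.21, adjusted p = 2.95e-09, edgeR). Among factors of epithelial identity, Ehf rose from 65.4 to 72.4 CPM to 305 to 333 CPM (2.20 ± 0.04, adjusted p = 1.06e-11, edgeR) and Elf3 from 22.9 to 32.6 CPM to 151 to 182 CPM. Cdx2, the master factor of intestine, was expressed in both culture types, at 33.1, 34.3, 24.3 and 22.6 CPM in 2D and 33.8, 36.9, 40.3 and 43.8 CPM in 3D, whereas its means were 1.2 CPM in fetal liver and 0 in adult liver. Its call (adjusted p = 0.0171, edgeR) was lost without 2D-iHE 1 or the unnumbered iHEA library (adjusted p = 0.0554 and 0.0511), with the libraries of a condition summed (0.102), with the replicate block (0.0719) and in the cultures without iECs (log2 fold change 0.04, adjusted p = 0.614). The duct factor Sox9 was lower in 3D, at 1.07, 1.21, 5.69 and 2.53 CPM against 6.52 to 8.05 CPM in 2D (-1.55 ± 0.40, adjusted p = 0.00411, edgeR), with iHLOs below iHEAs and a log2 fold change of -2.29 without iHEA 1. Foxa1, Foxa3, Onecut1, Nr1i3, Hnf4g, Pdx1 and Cdx1 stayed at or under 0.505 CPM in all 8 libraries.

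**Figure D3:**
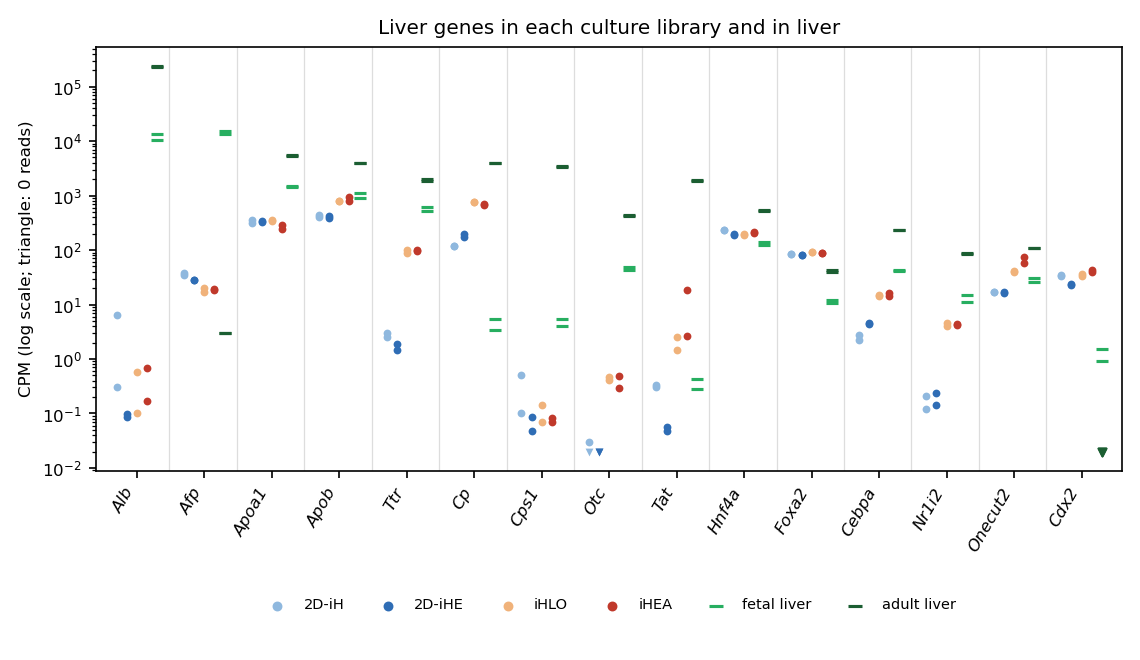
CPM of 15 liver and endoderm genes on a log axis, with points for each of the 8 culture libraries and dashes for the 2 fetal and 2 adult liver libraries of the series; triangles mark 0 reads. Alb, Cps1 and Otc lie far below adult liver in all cultures, whereas Foxa2 is above it in all cultures.

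Ductal and junction genes changed unevenly. The cholangiocyte list had 12 members higher and 9 lower of 24, and its summed level was 4938 to 5535 CPM in 2D and 4660 to 5259 CPM in 3D. The keratins that mark ducts barely moved: Krt7 had 360.2 to 430.1 CPM in 2D and 421 to 529 CPM in 3D (0.23 ± 0.07, adjusted p = 0.0124, edgeR), and Krt19 had 775 to 1036 CPM and 693 to 858 CPM, both with overlapping groups. The call of Krt7 was lost with the replicate block (adjusted p = 0.0657, edgeR) and with the libraries of a condition summed (0.0813). The call of Krt19 was lost without either 2D-iH or either iHLO library (adjusted p = 0.0727 to 0.0891, edgeR), with the libraries of a condition summed (0.105) and in the cultures with iECs (log2 fold change 0.02, adjusted p = 0.861). Krt23, a stress-responsive keratin, fell from 450, 447, 287 and 285 CPM to 33.5, 35.9, 36.5 and 27.1 CPM (-3.49 ± 0.18, adjusted p = 1.19e-08, edgeR). In contrast, the membrane mucin Muc1 rose from 0.767 to 1.21 CPM to 93.5, 74.5, 130 and 194 CPM (6.79 ± 0.37, adjusted p = 1.48e-08, edgeR), and the water channel Aqp1 from 0.882 to 1.7 CPM to 38.7 to 45.8 CPM (4.92 ± 0.14, adjusted p = 8.51e-11, edgeR). Sctr, the secretin receptor of bile ducts, had 3 reads in 2D against 253 in 3D, a ratio of 91.3 with an exact binomial 95% interval of 30.9 to 445.

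Of 32 tested claudin and junction genes 22 were higher and 7 lower, with a median of 1.14. Cldn3, a sealing claudin, went from 1.24 to 1.58 CPM to 24.3, 23.5, 33.3 and 30.9 CPM (4.27 ± 0.15, adjusted p = 4.32e-10, edgeR), and Cldn2, which forms a cation-selective pore, from 361 to 418 CPM to 1031 to 1168 CPM (1.51 ± 0.06, adjusted p = 1.15e-09, edgeR). Connexins moved in both directions. Gjb1, the main connexin of hepatocytes, rose from 0.192 to 0.582 CPM to 11.5 to 19.3 CPM (5.04 ± 0.25, adjusted p = 7.99e-09, edgeR), and Gja1, the connexin of many mesenchymal cells, fell from 32.5 to 38.2 CPM to 1.8 to 7.19 CPM (-3.21 ± 0.27, adjusted p = 5.81e-07, edgeR). Gjb2, a second connexin of hepatocytes, was low in both, at 0.636 to 1.11 CPM in 2D and 0 to 0.698 CPM in 3D with overlapping groups (-1.82 ± 0.64, adjusted p = 0.022, edgeR), and its call was lost without 2D-iHE 1 or iHLO 2 (adjusted p = 0.0541 and 0.0529, edgeR) and with the libraries of a condition summed (0.114). The log2 fold change of Gjb2 was -5.20 in the cultures without iECs and -1.02 in those with iECs, where it was not called in a fit of these cultures alone (adjusted p = 0.056, edgeR). Cldn6, an embryonic claudin, fell from 4.94 to 5.76 CPM to 0.179 to 0.733 CPM. Ion transport genes were also more often higher, 15 against 7 of 25 tested. The borate and proton transporter Slc4a11 fell from 71.9 to 116 CPM to 2.25 to 5.43 CPM (-4.63 ± 0.26, adjusted p = 1.86e-08, edgeR).

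The 12 genes that led the falls by the same ranking were of many kinds. Rgs20, a regulator of G protein signalling, went from 28.6, 30.8, 28.3 and 31.2 CPM to 0.243, 0.214, 0.279 and 0.126 CPM (-7.07 ± 0.12, adjusted p = 5.4e-12, edgeR). Prl, the pituitary hormone prolactin, was at 62.1, 56.2, 59.3 and 58.1 CPM in 2D and 1.11, 0.964, 0.873 and 0.968 CPM in 3D (-5.92 ± 0.08, adjusted p = 1.42e-12, edgeR). Il33, a nuclear cytokine released from damaged epithelia, was at 64.8 to 87 CPM in 2D and 1.01 to 2.39 CPM in 3D (-5.63 ± 0.18, adjusted p = 2.21e-10, edgeR). All 3D libraries of these genes lay below all 2D libraries. Rgs20, like Fat2 below, reached the minimum for testing only through the 2D libraries, so that it had to differ. Others of the 12 were Tigit, a receptor known from lymphocytes, the actin-binding Aif1l, the acyl-CoA synthetase Acsbg1, the metalloprotease Adam8, the giant cadherin Fat2, the membrane proteins Lhfp and Cd109, the uncharacterized 1110002E22Rik and Col7a1, the collagen of anchoring fibrils.

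Genes of the actin cytoskeleton and targets of YAP and TEAD were mostly lower in 3D. Of 21 tested YAP and TEAD targets 16 were lower and 3 higher (median -1.03), and of 30 genes of the actin cytoskeleton and focal adhesions 26 were lower and none higher (median -0.83). Ccn1, a matricellular protein and standard YAP target, went from 838, 860.4, 816 and 824 CPM to 44.8, 36.8, 40.4 and 36.8 CPM (-4.41 ± 0.07, adjusted p = 4.14e-12, edgeR). Its relative Ccn2 was at 432, 437, 593 and 616 CPM in 2D and 57.5, 53.5, 51.2 and 47.1 CPM in 3D (-3.33 ± 0.12, adjusted p = 7.25e-10, edgeR), and Ankrd1 at 325 to 335 CPM and 36.3 to 44.2 CPM. The 3D libraries of all of them were below the lowest 2D library by several fold. Cald1, the actin-binding caldesmon, fell from 481 to 548 CPM to 22.8 to 35.7 CPM (-4.27 ± 0.13, adjusted p = 1.3e-10, edgeR), and beta-actin (Actb) from 1990, 2016, 2061 and 2039 CPM to 932, 907, 944 and 910.3 CPM (-1.15 ± 0.04, adjusted p = 2.11e-10, edgeR). The summed level of the actin list was 15278 to 15977 CPM in 2D and 7933 to 8239 CPM in 3D.

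Mesenchymal genes followed in part, with 13 of 24 lower and 6 higher. Of these 24, 1 reached the minimum only in 3D, Pdgfrb, and 1 only in 2D, Lox, so that they had to differ. Of the 22 that reached it in both culture types 12 were lower and 5 higher. Vim, the intermediate filament of mesenchyme, was at 1784, 1834, 2144 and 2013 CPM in 2D and 842, 825, 853 and 699.5 CPM in 3D (-1.29 ± 0.08, adjusted p = 2.75e-08, edgeR). N-cadherin (Cdh2) fell from 67.6 to 79.1 CPM to 6.73 to 12.3 CPM (-3.10 ± 0.14, adjusted p = 4.13e-09, edgeR) and the collagen crosslinker Lox from 1.95 to 3.5 CPM to 0 in all 3D libraries but iHEA 1, which had 0.279 CPM, while the PDGF receptors Pdgfra and Pdgfrb rose from a low level to 2.4 to 7.25 CPM and 1.46 to 2.62 CPM. Fibronectin (Fn1) was at 199, 194, 278 and 279 CPM in 2D and 248, 163, 455 and 180.2 CPM in 3D and was not called, with iHEA 1 the highest. Basement membrane genes fell in 16 of 24 cases and rose in 4, with a median of -1.14. Perlecan (Hspg2) went from 623 to 804 CPM to 112 to 135 CPM (-2.52 ± 0.09, adjusted p = 4.32e-10, edgeR), Col7a1 from 151, 166, 214 and 188 CPM to 4.16, 2.89, 6.5 and 4.17 CPM (-5.36 ± 0.18, adjusted p = 3.18e-10, edgeR), and Col18a1 from 1371 to 1888 CPM to 467 to 566 CPM. Agrn, the heparan sulfate proteoglycan agrin, was among the few that rose, from 510.2 to 734 CPM to 1025 to 1167 CPM (0.79 ± 0.10, adjusted p = 1.52e-05, edgeR).

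**Figure D4:**
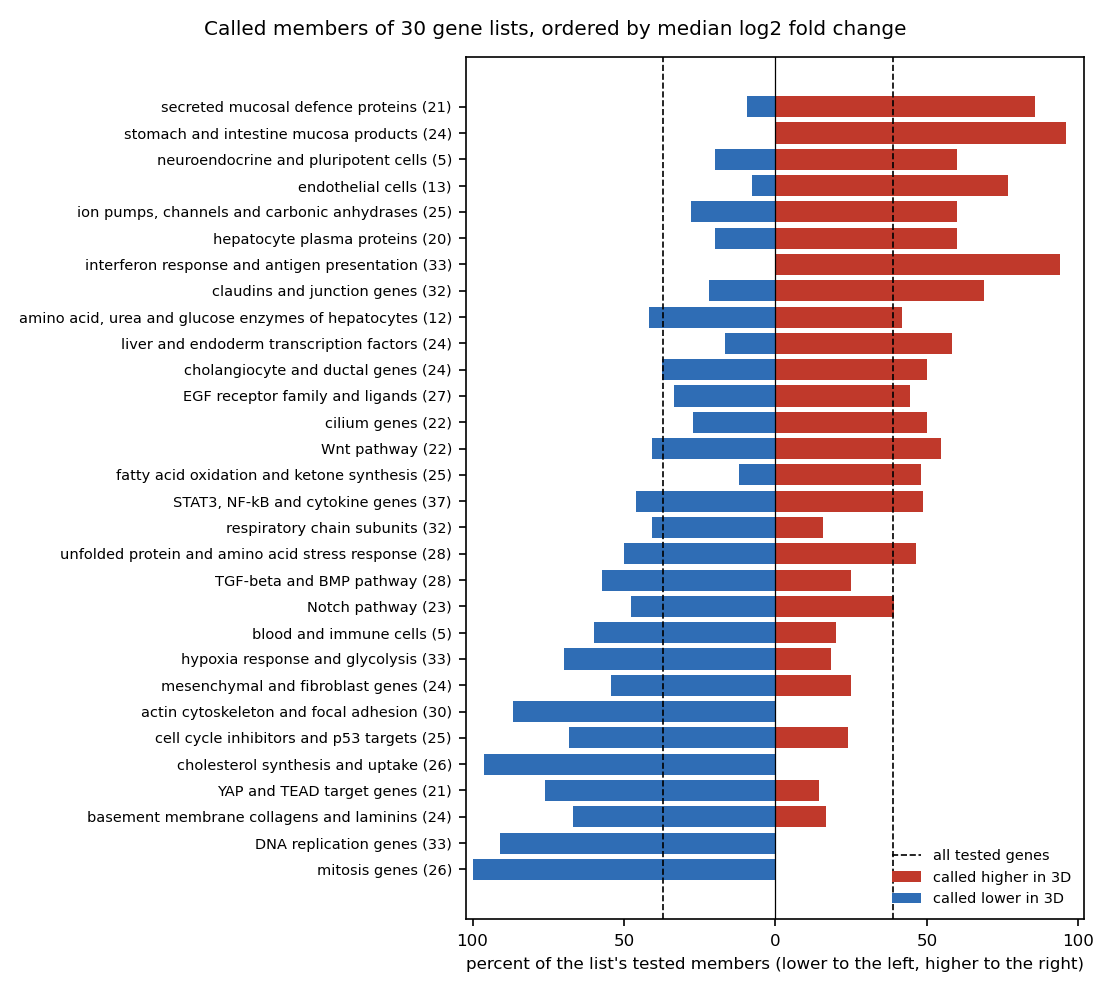
Percent of the tested members of each of 30 gene lists that were called higher (red, to the right) and lower (blue, to the left) in 3D, with the number tested in brackets and the lists ordered by their median log2 fold change. Dashed lines mark the shares over all tested genes, 38.7% higher and 37.2% lower. Mitosis, DNA replication, cholesterol and actin lists have no member called higher, and the interferon and gastrointestinal lists have none called lower.

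Proliferation genes were lower in 3D. All 26 mitosis genes were called lower, each by at least 2-fold, with a median of -2.44, and their summed level was 3100 to 3295 CPM in 2D and 581 to 651 CPM in 3D. The proliferation marker Mki67 went from 399.6, 359.8, 347 and 368 CPM to 72.9, 85.9, 75.7 and 70.4 CPM (-2.29 ± 0.07, adjusted p = 1.61e-10, edgeR), and the centromere histone Cenpa from 91.2 to 97 CPM to 11.4 to 13.3 CPM (-2.96 ± 0.05, adjusted p = 6.64e-12, edgeR). The upstream sequences of the mitotic kinase gene Cdk1 and of Cdc20, an activator of the anaphase-promoting complex, are shown because they belong to the list that fell in every member. Cdk1 had 176 to 192 CPM in 2D and 35.2 to 39.7 CPM in 3D, and Cdc20 122 to 141 CPM and 20.5 to 25 CPM. Capitals mark matches to the letters TTTGAA of the cell cycle genes homology region (CHR), a promoter element of G2 and M phase genes, which start 71 and 15 bases before the start in Cdk1 and 18 bases before it in Cdc20.
Cdk1 (GRCm38.p6, chr10:69352913-69353162, minus strand): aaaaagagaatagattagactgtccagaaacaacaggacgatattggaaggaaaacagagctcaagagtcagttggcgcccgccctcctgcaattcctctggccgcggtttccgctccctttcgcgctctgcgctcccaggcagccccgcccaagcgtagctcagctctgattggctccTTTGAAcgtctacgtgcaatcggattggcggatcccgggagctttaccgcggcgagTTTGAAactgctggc
Cdc20 (GRCm38.p6, chr4:118437344-118437593, minus strand): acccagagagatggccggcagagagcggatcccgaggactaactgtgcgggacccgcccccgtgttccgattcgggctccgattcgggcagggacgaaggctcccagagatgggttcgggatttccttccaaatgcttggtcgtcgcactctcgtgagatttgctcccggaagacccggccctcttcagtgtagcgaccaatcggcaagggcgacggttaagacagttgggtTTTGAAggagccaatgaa
Of the 26 mitosis genes 23 had a promoter in the table. In 17 of these (73.9%) TTTGAA was found on either strand, against 18.1% of all 27025 promoters, and in 19 (82.6%) the letters CCAAT of the NF-Y motif, against 37.9%. These 23 promoters had a median GC content of 60.7% against 52.7% over all, and CCAAT was also found in 73.1% of the promoters of stress response genes. The SP factor letters GGGCGG were in 78.3% of the mitosis promoters against 35.9% of all.

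Replication genes fell less than those of mitosis, with 30 of 33 lower, none higher and a median of -1.28. Rrm2, a subunit of ribonucleotide reductase, went from 115 to 152 CPM to 23.2 to 30.5 CPM (-2.31 ± 0.11, adjusted p = 3.88e-09, edgeR), and the sliding clamp Pcna from 120.2 to 129 CPM to 103 to 108 CPM (-0.25 ± 0.04, adjusted p = 0.000108, edgeR). Inhibitors of the cell cycle did not take the opposite course. Of 25 inhibitors and p53 targets 17 were lower and 6 higher (median -0.90). Cdkn1a (p21) fell from 402, 413, 368 and 375 CPM to 211, 193, 211 and 197 CPM (-0.96 ± 0.05, adjusted p = 2.18e-08, edgeR), Cdkn2b from 24.8 to 26.7 CPM to 3.26 to 6.67 CPM and Cdkn2a from 2.79 to 3.56 CPM to 0.0694 to 0.524 CPM. The antiproliferative Btg2 was one of the members that rose, from 85.8 to 98.7 CPM to 203 to 253 CPM (1.28 ± 0.08, adjusted p = 3.79e-08, edgeR).

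Transcripts of cholesterol synthesis, and most of those of glycolysis and the hypoxia response, were lower in 3D. Of 26 genes of cholesterol synthesis and uptake 25 were lower and none higher, with a median of -0.97. Sqle, the squalene epoxidase, went from 223 to 267 CPM to 128 to 141 CPM, and Hmgcs1, an early enzyme of the pathway, from 145 to 197 CPM to 107 to 134 CPM (-0.53 ± 0.11, adjusted p = 0.00102, edgeR). Glycolysis and hypoxia genes were lower in 23 of 33 cases and higher in 6 (median -0.62). The lactate dehydrogenase Ldha was at 1910, 1931, 1710 and 1631 CPM in 2D and 770.3, 754, 689 and 640.1 CPM in 3D (-1.35 ± 0.08, adjusted p = 3.11e-08, edgeR), and the pyruvate kinase Pkm lost the most CPM of all genes, from 2908 to 3276 CPM to 1176 to 1408 CPM (-1.25 ± 0.07, adjusted p = 1.79e-08, edgeR). Vegfa, a standard target of hypoxia-inducible factor, changed little, from 566 to 601 CPM to 462 to 512 CPM (-0.29 ± 0.05, adjusted p = 0.000129, edgeR). Against this course Slc2a3, a glucose transporter of high affinity, rose from 6.7, 6.51, 2.53 and 2.59 CPM to 108, 124, 103 and 85.1 CPM (4.47 ± 0.26, adjusted p = 2.44e-08, edgeR).

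The upstream sequence of Ldha is shown because it holds several matches to the letters ACGTG, the core bound by hypoxia-inducible factor, in a list where most members were called lower. The capitals mark matches on either strand that begin 145, 144, 48, 47 and 34 bases before the start, where the palindrome CACGTG counts once on each strand.
Ldha (GRCm38.p6, chr7:46845554-46845803, plus strand): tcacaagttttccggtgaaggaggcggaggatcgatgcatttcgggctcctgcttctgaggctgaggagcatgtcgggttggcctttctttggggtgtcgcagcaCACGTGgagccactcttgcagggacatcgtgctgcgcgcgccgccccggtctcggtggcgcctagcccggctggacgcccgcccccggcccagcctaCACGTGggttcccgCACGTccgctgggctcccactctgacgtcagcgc
Of the 33 glycolysis and hypoxia genes 29 had a promoter in the table, and 15 of these (51.7%) held ACGTG against 19.7% of all promoters. The same promoters held GGGCGG, the SP factor motif, more often still, in 82.8% against 35.9%. Their median GC content was 62.3% against 52.7% over all promoters, and ACGTG was also found in 38.5% of the promoters of stress response genes (median GC 61.5%) and 34.8% of those of mitosis genes (60.7%), so the part of base composition was not tested.

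Oxidative genes changed less. Fatty acid oxidation and ketone genes were higher in 12 of 25 cases and lower in 3, with 10 not called and a median of 0.15. Acaa2, the last enzyme of mitochondrial beta-oxidation, rose from 35.8 to 37.6 CPM to 80.3 to 95.7 CPM (1.27 ± 0.06, adjusted p = 4.48e-09, edgeR). Nuclear-encoded respiratory chain subunits were lower in 13 and higher in 5 of 32 cases, none by 2-fold, with a median of -0.05; mitochondrially encoded genes were not analysed here. Genes of the unfolded protein and amino acid stress response split into 13 higher and 14 lower. The lectin chaperone Calr rose from 974 to 1140 CPM to 3193 to 3325 CPM (1.63 ± 0.06, adjusted p = 6.76e-10, edgeR) and the secretory cell factor Xbp1 from 161 to 171 CPM to 358 to 402 CPM (1.18 ± 0.05, adjusted p = 1.08e-09, edgeR), whereas Phgdh, the first enzyme of serine synthesis, fell from 466 to 526 CPM to 201 to 237 CPM (-1.21 ± 0.06, adjusted p = 4.91e-09, edgeR). Hspa5 (BiP), the central sensor chaperone, was at 2503 to 3085 CPM in 2D and 2395 to 2513 CPM in 3D (-0.20 ± 0.07, adjusted p = 0.0302, edgeR) with overlapping groups, and its call was lost without 2D-iH 1, 2D-iH 2, iHLO 2 or the unnumbered iHEA library (adjusted p = 0.055 to 0.0797, edgeR) with the replicate block (0.0936), with the libraries of a condition summed (0.157) and in the cultures with iECs (-0.07, adjusted p = 0.372). Gclc, the rate-limiting enzyme of glutathione synthesis, dropped from 1819, 1723, 1574 and 1615 CPM to 351, 343, 336 and 337 CPM (-2.32 ± 0.06, adjusted p = 3.72e-11, edgeR), and the selenium carrier Selenop rose from 333 to 355 CPM to 2306 to 2622 CPM (2.84 ± 0.05, adjusted p = 8.86e-12, edgeR).

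Interferon-response and antigen-presentation genes were the signalling group with the most uniform rise, 31 of 33 higher, none lower and a median of 1.39. B2m, the light chain of MHC class I, was at 394, 385, 449 and 432 CPM in 2D and 1162, 1208, 1253 and 1185 CPM in 3D (1.51 ± 0.05, adjusted p = 3.38e-10, edgeR). The antiviral GTPase Mx1 went from 32.4 to 38.4 CPM to 159 to 189 CPM (2.28 ± 0.07, adjusted p = 1.36e-10, edgeR), the immunoproteasome subunit Psmb8 from 1.27, 1.3, 2.05 and 1.82 CPM to 20, 22.5, 21.7 and 20.6 CPM (3.70 ± 0.13, adjusted p = 4.07e-10, edgeR), and Nlrc5, the transactivator of MHC class I, from 1.75 to 3.5 CPM to 12.4 to 16.4 CPM. Cytokine and NF-kB genes had no common direction, with 18 of 37 higher and 17 lower. The mucosal chemokine Cxcl17 rose from 12 to 14.5 CPM to 183 to 204 CPM (3.88 ± 0.06, adjusted p = 3.84e-12, edgeR) and Ccl28 from at most 0.144 CPM to 9.96 to 21.6 CPM (7.58 ± 0.44, adjusted p = 2.43e-08, edgeR), while the macrophage growth factor Csf1 fell from 147, 152, 226 and 231 CPM to 33.2, 29.4, 39.1 and 30 CPM (-2.54 ± 0.16, adjusted p = 4.62e-08, edgeR). Socs3, a feedback target of STAT3, rose from 53.1 to 69.3 CPM to 118 to 149.9 CPM (1.12 ± 0.09, adjusted p = 4.21e-07, edgeR).

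Developmental signalling pathways changed member by member. In the TGF-beta and BMP list 16 of 28 were lower and 7 higher: the ligand Tgfb1 fell from 40 to 50.3 CPM to 10.7 to 15.9 CPM (-1.86 ± 0.12, adjusted p = 5.45e-08, edgeR), and Id2, a target of BMP signalling, rose from 44.5 to 84.4 CPM to 192 to 240.1 CPM. Among Notch genes 9 of 23 were higher and 11 lower, where 4 reached the minimum for testing only in 3D, and of the 19 that reached it in both culture types 5 were higher and 11 lower. The receptors Notch1 and Notch3 fell, Notch1 from 103 to 127 CPM to 46.1 to 54 CPM (-1.24 ± 0.07, adjusted p = 3.25e-08, edgeR), as did the ligand Jag1 from 24.9 to 29.5 CPM to 12.4 to 15.2 CPM (-1.01 ± 0.08, adjusted p = 2.26e-07, edgeR), while the ligand Dll1 rose from 0.0909 to 0.336 CPM to 4.19 to 5.86 CPM. Wnt genes were higher in 12 and lower in 9 of 22 cases. Wnt4 rose from 11.4 to 13.3 CPM to 62.3 to 93 CPM (2.60 ± 0.11, adjusted p = 2.56e-09, edgeR), Wnt7b fell from 63.4, 67, 119 and 116 CPM to 13.1, 12.3, 30.4 and 29.6 CPM (-2.12 ± 0.31, adjusted p = 7.31e-05, edgeR), and the target gene Axin2, too low to test, was at 0 to 0.152 CPM in 2D and 0.594 to 0.758 CPM in 3D without overlap. For the EGF family, 12 of 27 were higher and 9 lower. The receptor Egfr went from 111 to 125 CPM to 43.6 to 54.1 CPM (-1.29 ± 0.06, adjusted p = 4.6e-09, edgeR) and its ligand Areg from 183, 169, 121 and 120.5 CPM to 25.9, 21.1, 35.8 and 28.1 CPM (-2.45 ± 0.18, adjusted p = 1.85e-07, edgeR). Fgfr1, a fibroblast growth factor receptor, was nearly absent in 2D at no more than 0.144 CPM and at 8.25, 8.32, 13.6 and 11 CPM in 3D (7.52 ± 0.37), so that it reached the minimum for testing only through the 3D libraries and had to differ. Cilium genes were higher in 11 and lower in 6 of 22 cases, and Foxj1, the factor of motile cilia, rose at a low level from 0.0569 to 0.192 CPM to 0.929 to 1.73 CPM (3.46 ± 0.36, adjusted p = 4.29e-06, edgeR).

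Markers of other cell types were checked beside these results. Of 13 tested endothelial genes 10 were higher and 1 lower (median 1.74), where 2 reached the minimum only in 3D and 8 of the other 11 were higher, and the summed level of the whole list of 20 was 510.4 to 568 CPM in 2D and 1074 to 1621 CPM in 3D. The blood-clotting protein Vwf was at 30.6, 28.7, 17.2 and 17.4 CPM in 2D and 764, 900.3, 538 and 503 CPM in 3D (4.82 ± 0.26, adjusted p = 1.46e-08, edgeR), and the angiopoietin receptor Tek at 1.17 to 2.57 CPM and 135, 139.5, 93.3 and 94.8 CPM (5.90 ± 0.23, adjusted p = 1.05e-09, edgeR). For both genes the iHLOs, to which no iECs were added, were above the iHEAs. VE-cadherin (Cdh5) was at 493, 491, 458 and 453 CPM in 2D and 486, 511, 459 and 435 CPM in 3D and was not called, whereas Etv2 and Cldn5 had no read in any culture library and Erg, Sox18 and Emcn were near 0. Pecam1, a defining endothelial marker, rose at a low level from 0.0854 to 0.171 CPM to 0.379 to 0.786 CPM (2.14 ± 0.36, adjusted p = 0.000208, edgeR). Blood and immune genes were at 29.6 to 31.8 CPM in sum in 2D and 34.1 to 38.9 CPM in 3D, of which Cd68 alone made 21.6 to 27.5 CPM. In the cultures 10 of 20 were at no more than 3 reads in every library, with Hba-a2, Hbb-bt and Tyrobp at 0. Of the neuroendocrine and pluripotency list 12 of 20 were at no more than 3 reads in every culture library, and Nanog, Sox2, Lin28b and Sst were at 0 in all cultures. The summed level of 29 to 42 CPM in 2D was mostly that of Nes, a neural progenitor filament, which fell from 28 to 40.7 CPM to 0.0357 to 0.295 CPM (-7.66 ± 0.28, adjusted p = 6.25e-10, edgeR). Of its 5 tested members 3 were higher, each reaching the minimum only in 3D, among them Chgb, a granule protein of endocrine cells, from 0.0685 to 0.24 CPM to 2.44 to 4.4 CPM (4.25 ± 0.31, adjusted p = 1.76e-07, edgeR), and the summed level in 3D was 6.57 to 9.47 CPM. The part of other cell types in the differences above was not tested.

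Expression of some genes was found in only one culture type. With at most 3 reads in each library of one type and at least 30 in each of the other, 74 genes were on in 3D and 13 in 2D. Of the 74, 16 had at least 10 CPM in adult liver, 33 were under 1 CPM in fibroblasts and in both livers, and 8 had at least 10 CPM in the fibroblasts. Over all 13409 tested genes, 48.9% had at least 10 CPM in adult liver and 67.5% in fibroblasts, and the difference of the 74 from these shares was not tested. Among the 4 genes without a single read in 2D and with at least 100 in each 3D library were, besides Sftpd and Tff3, Cyp2d12 with 20.3 to 35.5 CPM in 3D and Psg28, a pregnancy-specific glycoprotein, with 5.22 to 6.52 CPM. Both belong to families of similar copies, so their reads may be split with relatives. The 13 genes on in 2D included Atp6v1c2, a proton pump subunit with a mean of 16.1 CPM there, and the lectin Siglecg with 15.8 CPM.

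The levels of the changed genes in tissue were compared in libraries that had no part in the choice of genes. Of the 480 genes with at least an 8-fold rise, 49.2% were higher in both adult liver libraries than in both fibroblast libraries, against 20.2% of all tested genes and 25.5% of the 188 with at least an 8-fold fall. In adult liver Alb alone took 230811 CPM, which leaves less of the total for other genes. On the other hand, only 45.6% of the 480 genes reached 1 CPM in adult liver against 79.4% of all tested genes, and 165 of them were under 1 CPM in adult and fetal liver alike, as were 60 of the 188 fallen genes and 1326 of the 13409 tested. Of the fallen genes 36.2% reached 1 CPM in adult liver. In fibroblasts this level was reached by 55.3% of the fallen and 29.8% of the risen genes, both below the 85.1% of all tested genes.

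The difference between 3D and 2D was itself compared between cultures with and without iECs. An interaction was called for 421 genes (3.14%). The 6 genes with the smallest interaction p among those with at least a 2-fold change follow, and in each the 2D-iHEs differed from the 2D-iHs. Cdh17, an adhesion molecule of intestine, was at 111 and 119.6 CPM in 2D-iHs, 44.3 and 43.4 CPM in 2D-iHEs, 204 and 223 CPM in iHLOs and 252 and 256 CPM in iHEAs (interaction log2 of 1.65, adjusted p = 7.53e-07, edgeR). The adhesion molecule Ceacam1 was at 139, 151, 59 and 60.9 CPM in 2D and 526, 559, 653 and 761 CPM in 3D (1.66, adjusted p = 3.71e-06, edgeR), and the carboxypeptidase Cpm at 239.8, 233, 86.2 and 94.1 CPM and 526, 568, 531 and 629.5 CPM (1.48, adjusted p = 1.69e-05, edgeR). For these genes and for Ildr1, a protein of tricellular junctions (interaction log2 of 2.46), the rise in 3D was larger with iECs than without. Spsb1, an adaptor of a ubiquitin ligase, rose less with iECs, from 42.2 and 40.3 CPM to 87.4 and 89 CPM compared with 24.7 and 26.2 CPM to 105 and 98.2 CPM without (-0.90, adjusted p = 0.000204, edgeR). Clca3b fell less with iECs, from 13.3 and 15.3 CPM to 6.46 and 5.18 CPM compared with 38.1 and 37.6 CPM to 3.71 and 4.14 CPM (2.00, adjusted p = 7.99e-05, edgeR). The number of interactions depended on single libraries, being 963 without iHEA 1, 801 without the other iHEA library and 129 to 203 without any 1 of the remaining 6.

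**Figure D5:**
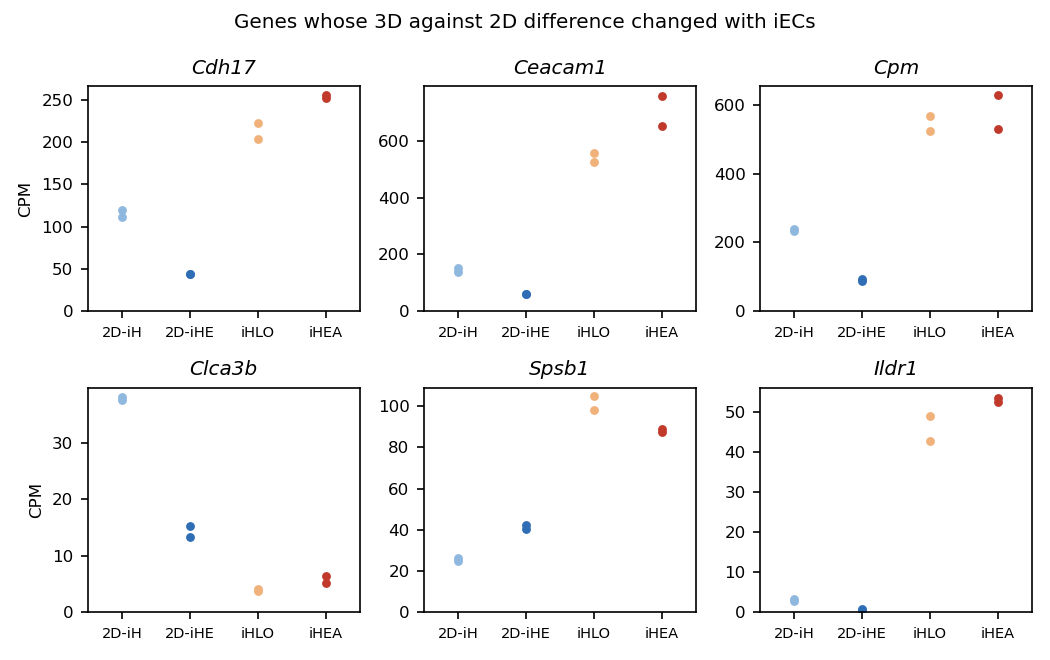
CPM of the 6 genes with the smallest interaction p among genes with at least a 2-fold change, on linear axes that start at 0, with 1 point for each of the 2 libraries of a condition, with those of the 2D cultures on the left. In 2D, the libraries with iECs are lower than those without for Cdh17, Ceacam1, Cpm, Clca3b and Ildr1 and higher for Spsb1.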

How the data were processed

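Gene counts of 14 libraries were used as deposited, of which 8 were cultures. Per the labels' processing notes and the methods of the study, the authors trimmed reads with Trimmomatic 0.36, aligned them to the mouse genome mm10 with HISAT2, annotated them with Cufflinks and obtained raw counts per gene with HTSeq; versions not printed are not given in the sources used here, nor is a strand setting. Total counts of the cultures were 20851489 to 35143325. All 14 columns were mapped by their names; 1 iHEA column, whose name matches no single label, was mapped to its condition only and enters no replicate block.

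Genes with a mean log2(count + 1) under 3 were dropped, and the rest were fitted in edgeR 4.0.16 (R 4.3.3) with TMM scaling and the quasi-likelihood test, 4 libraries of 3D against 4 of 2D, with Benjamini-Hochberg adjustment. The interaction used 1 mean per condition. SE is the log2 fold change divided by the root of F. In data simulated for this comparison over 13409 genes, 89% of 200 genes changed by a log2 of 1 were recovered and 4.3% of calls were false. The simulation drew the 4 libraries of a culture type from 1 mean and left most genes unchanged. In the data 75.9% of genes were called, so these shares do not carry over to the calls reported here. DESeq2 1.42.0 was an alternative, as were other filters, scalings, blocks, subsets and each library left out. Intervals cover counting error only.

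Replicate numbers did not pair the libraries: correlations of the deviations of same-numbered libraries were -0.117, -0.0127 and 0.0519. The members and gene lists were chosen with earlier results of these data known. Named genes were those with the 12 largest rises and 12 largest falls, with genes shown in the study or named earlier set aside, and the 8 largest gains and 8 largest losses in CPM among called genes with groups that do not overlap and at least 10 CPM in the higher group, up to 3 rises and 3 falls in each list, all members of the transcription factor list and of lists of at most 12 tested genes, preset defining members, and the 6 genes with the smallest interaction p; the text takes part of these. Gkn1, Muc4, Muc2, Olfm4, Lgr5, Cp, Apob, C3, Cldn2, Cdk1, Cdc20, B2m, Mx1, Etv2, Cldn5, Erg, Sox18, Emcn, Cyp2d12, Psg28, Atp6v1c2 and Siglecg were outside the rule and were chosen after their values were seen, as were the 5 printed promoters. RefSeq promoters (GRCm38.p6) were matched by symbol for 10474 of 13409 genes (78.1%). This is under 80%, so the motif check over ranked genes was void, the part of the naming rule that used it was not applied, and motif shares are given only for lists with at least 80%. Some members of the lists are counted in them but not reported here by name.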

Additional observations from a re-analysis of the deposited data

Results flagged for a closer look

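In 11 of 273 groups of 4 libraries tested over the genes named above, 1 library stood apart by Dixon's criterion, and chance flags about 1 in 20 groups. In iHEA 1 this was so for Lgr5 (9.6 CPM), C3 (275 CPM), Tat (18.8 CPM) and Lox (0.279 CPM), each high, and for Cxcl17 (183 CPM), which was low. The unnumbered iHEA library was high for Cyp2d34 (71.6 CPM) and Apob (931 CPM). Pdgfra was high in iHLO 1 (7.25 CPM) and Tigit differed in iHLO 2 (0.143 CPM). In 2D-iH 1, Alb (6.36 CPM) and Cps1 (0.515 CPM) were high.

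For 23 of the 140 tested named genes the difference between 3D and 2D was itself different with and without iECs by the interaction test in edgeR, which called 3.14% of all tested genes. Of the 23, Cdh17, Ceacam1, Cpm, Ildr1, Spsb1 and Clca3b were named for their small interaction p, so their flags were fixed by that choice. The log2 difference was larger with iECs for Hnf4a by 0.40, Elf3 by 0.53, Cdx2 by 0.77, Sox9 by 1.98, Krt19 by 0.53, Krt23 by 0.54, Slc4a11 by 0.58, Slc2a3 by 1.08, Id2 by 0.72, Wnt7b by 0.39, Areg by 1.00, Cdh17 by 1.65, Ceacam1 by 1.66, Cpm by 1.48, Ildr1 by 2.46, Gjb2 by 4.18 and Clca3b by 2.00, where a larger difference means a larger rise or a smaller fall. It was smaller with iECs for Cp (-0.74), Cebpa (-0.78), Ccn2 (-0.64), Hspg2 (-0.42), Socs3 (-0.48) and Spsb1 (-0.90). The number of such genes depends on single libraries, as given above.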

How the results depend on the processing

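The numbers of genes called higher and lower, at any size and at 2-fold, stayed within 1.5 times under every alternative, among them no filter (2339 higher and 2053 lower at 2-fold), a filter of at least 5 (1218 and 1161), DESeq2, the replicate block over the 7 numbered libraries (4980 and 4771 at any size) and each library left out. The replicate numbers do not pair these libraries. The count of interactions was 786 with the replicate block and 129 to 963 with 1 library left out, where a condition with 1 library is assumed to vary like the others; the cause was not tested. With 0 reads in one culture type and at least 100 in each library of the other, 4 genes were on in 3D and 0 in 2D. At 10 CPM in place of 1 CPM, 24.4% of the genes with an 8-fold rise and 6.38% of those with an 8-fold fall were present in adult liver, against 48.9% of all tested genes. Of 140 named genes 129 kept direction and call under all alternatives that gave them a value. Many of these genes were named for large changes called in the same libraries, which favours this, so the count is not a test of stability. With iECs alone, Alb turned to 2.26 (adjusted p = 0.0291, edgeR), against -3.37 without iECs (0.000322), and Krt19 to 0.02. The values of Alb rest on few reads, as given above. In 4 lists an alternative changed which direction had more calls: 16 higher and 17 lower cytokine genes with DESeq2, 13 higher and 11 lower stress response genes with iECs alone, and, with a filter of at least 5, 4 higher and 5 lower hepatocyte enzymes and 0 higher and 1 lower neuroendocrine genes.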
